A study of Mus musculus with 10 samples.

Results

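The genes Flt3 and Kit encode receptor tyrosine kinases of the same class, and the open chromatin in and around both was followed through 5 groups of progenitor cells from mouse bone marrow. Overlapping peaks of all 10 ATAC-seq libraries, sharing 1 bp or more, were joined into 114366 merged regions on chromosomes 1 to 19 and X. The 93 regions described here are those whose centre lay inside the gene span of Flt3 or Kit or within 160 kb of it, 57 at Flt3 and 36 at Kit. A library counted as detecting a region where any of its peaks touched that region. The median protein-coding gene of 21631 had 26 regions in a window drawn the same way, with quartiles of 15 and 36.

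Kit is the receptor for stem cell factor, the product of Kitl, and is known for keeping blood stem cells and early progenitors alive and dividing. Flt3 is the receptor for FLT3 ligand, the product of Flt3l, and is known for the growth of lymphoid-primed and dendritic cell progenitors. Binding of the ligand pairs 2 receptors, which phosphorylate each other and recruit adaptors, lipid kinases, STAT proteins and phosphatases. Both genes are read from several regulatory elements, and far elements downstream of Kit have been described in blood cells.

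ATAC-seq uses a transposase that inserts sequencing adaptors where DNA is accessible, so a peak marks accessible chromatin in the pool of sorted cells. All libraries came from C57BL/6 mice, with 2 libraries per group and 5000 to 7200 cells sorted for each after magnetic enrichment. The 4 wild-type (WT) groups were long-term hematopoietic stem cells (LT-HSC; lineage-negative, CD117+, Sca-1+, CD135-, CD48-, CD150+), lymphoid-primed multipotent progenitors (LMPP; lineage-negative, CD117+, Sca-1+, CD135+), monocyte-dendritic cell progenitors (MDP; lineage-negative, Sca-1-, CD117+, IL-7R-, CD115+) and common dendritic cell progenitors (CDP; lineage-negative, Sca-1-, CD117 intermediate, IL-7R-, CD115+, CD135+). The fifth group held IRF8-deficient MDP (IRF8KO MDP), sorted with the same markers as WT MDP. IRF8 is a transcription factor of monocyte and dendritic cell development, and the labels name neither the allele nor the age, sex or number of the animals. CD117 is the Kit protein and CD135 the Flt3 protein. LT-HSC were therefore sorted without surface Flt3, LMPP and CDP with it, and CDP for a lower level of Kit, so differences at these genes between those groups concern cells chosen on the gene products. WT and IRF8KO MDP shared the same gate, in which CD135 was not used.

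The bases just before the start of each gene are shown because the region over the start was detected in all 10 libraries at both loci. They are the 250 bases upstream of the start on the gene's own strand, from RefSeq on GRCm38.p6 (the mm10 assembly), at chr5:147400490-147400739 on the minus strand for Flt3 and at chr5:75574737-75574986 on the plus strand for Kit. Capitals mark the only match to the motifs searched.
Flt3: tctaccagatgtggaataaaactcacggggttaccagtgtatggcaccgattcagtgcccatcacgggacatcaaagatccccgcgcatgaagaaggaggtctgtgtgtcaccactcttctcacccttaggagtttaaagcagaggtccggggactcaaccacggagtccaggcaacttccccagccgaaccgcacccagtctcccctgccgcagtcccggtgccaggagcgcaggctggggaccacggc
Kit: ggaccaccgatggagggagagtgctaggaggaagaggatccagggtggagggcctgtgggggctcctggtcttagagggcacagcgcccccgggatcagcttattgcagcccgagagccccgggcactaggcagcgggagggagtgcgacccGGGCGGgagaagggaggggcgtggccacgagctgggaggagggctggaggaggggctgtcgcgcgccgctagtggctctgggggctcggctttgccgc

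The Kit sequence had 70.8% G and C with 17 CG dinucleotides, and the Flt3 sequence had 59.2% with 13, against medians of 52.4% and 6 over 32536 RefSeq promoters. Motifs were searched on both strands. GGGCGG, the core that SP1 binds, occurred once in Kit, starting 98 bases before the gene start, and not in Flt3, and 33.0% of the promoters held it. No match was found in either sequence to GAGGAAGT for PU.1 (2.45% of promoters), to AGATAA for GATA factors (9.97%), to TGTGGT for RUNX factors (14.0%), to TTGCNNAA for C/EBP factors (9.57%), to TGACAG for MEIS factors (15.8%), to TAACNG for MYB (19.9%) or to CAGCTG for E-box factors (13.1%). The composite ETS-IRF motif (2.31% of promoters) and an interferon-response-like motif (2.98%) were also searched without a match. These letters say nothing about binding elsewhere in the loci.

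Total tags per library ranged from 4790046 to 10166833 and peaks from 31325 to 69598. The 2 CDP libraries were the deepest, with 10166833 and 7985428 tags, and all others had 6478095 or fewer. High counts in CDP and greater depth thus cannot be told apart here. The first LT-HSC replicate stood apart, with the fewest peaks and 19.3% of its tags within peaks, against 38.1% to 53.7% in the other 9. Markers of the sorted types were counted as merged regions at each gene. Of 94 regions at Slamf1, Procr, Mecom, Hlf and Meis1, which mark stem cells, the LT-HSC libraries detected 24 and 61, LMPP 64 and 71, WT MDP 30 and 29, WT CDP 22 and 19, and IRF8KO MDP 14 and 12. Of 7 regions at Csf1r, which encodes CD115, they detected 1 and 3, 4 and 4, 4 and 4, 6 and 7, and 4 and 4. At Irf8 itself, of 10 regions, the counts were 0 and 2, 2 and 2, 7 and 4, 7 and 5, and 5 and 5, and accessible chromatin at the gene does not check the knockout.

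Flt3 lies on the minus strand at chr5:147330741-147400489 and spans 69.7 kb. Its window is shared with other genes: the RefSeq record of Pan3 begins 25.7 kb upstream, and Urad, Cdx2, Pdx1 and Gsx1 lie downstream. By nearest protein-coding gene, 19 of the 57 regions belonged to Flt3, 25 to Pan3, 5 to Cdx2, 3 each to Urad and Gsx1, and 2 to Pdx1. Kit lies on the plus strand at chr5:75574987-75656722, spans 81.7 kb, and shares its window with no other protein-coding gene. Its nearest protein-coding neighbours were Pdgfra, 377 kb upstream, and Kdr, 276 kb downstream, both genes of related receptors. Of the 36 regions at Kit, 24 were nearest to it and 12 had no protein-coding gene within 100 kb. Distances are given from the gene start to the centre of a region, along transcription. Which regions fell in exons or introns was not assigned here.

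Counted over the whole windows, the 2 loci had different patterns of detection across the groups, with no test between the loci. Of the 57 regions at Flt3, the LT-HSC libraries detected 14 and 27, LMPP 31 and 31, WT MDP 29 and 28, WT CDP 32 and 29, and IRF8KO MDP 23 and 30. At Kit, of 36, the same groups detected 5 and 10, 14 and 14, 16 and 17, 23 and 20, and 8 and 8. At Kit the 5 groups did not overlap except for LT-HSC and IRF8KO MDP, and the count was lowest in these 2 groups and highest in CDP. At Flt3 the ranges of several groups overlapped, and LT-HSC replicate 1 was the only library under 23.

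Differences between groups made up 94.1% of the variation among libraries in the Kit count, with p = 0.00741 in an exact permutation test over all 945 assignments of the 10 libraries to 5 groups of 2. The smallest p this design allows is 0.00106. At Flt3 the share was 55.9%, with p = 0.183 in the exact permutation test. The number of peaks per library itself differed between the groups (79.2%, exact permutation p = 0.0190). Per 10000 peaks of the library, the Kit count was 1.76 ± 0.227 in LT-HSC, 2.20 ± 0.0203 in LMPP, 2.61 ± 0.0423 in WT MDP, 3.18 ± 0.177 in CDP and 1.53 ± 0.0729 in IRF8KO MDP (mean ± SD, n = 2 each), and the groups differed with p = 0.00106 in the exact permutation test. The same measure at Flt3 lay between 4.50 ± 0.232 in WT MDP and 5.03 ± 0.702 in IRF8KO MDP (mean ± SD, n = 2 each; exact permutation p = 0.636). The Kit result did not hold without the weaker peaks: with each list trimmed to its first 31325 rows, the length of the shortest, the p of the exact permutation test was 0.524, and with the first 50% of each list it was 0.102. Under the same 2 settings the Flt3 count passed, with 85.2% between groups (exact permutation p = 0.0413) and 70.5% (exact permutation p = 0.00635), so which locus passed changed with the weaker peaks. The 2 Flt3 passes differed in direction: from LT-HSC to CDP the mean count changed by -2.0 in the first and by 4.5 in the second. With the LT-HSC libraries left out, the exact permutation p with all peaks was 0.00952 at Kit and 0.505 at Flt3, over 105 assignments of 8 libraries. No label ties libraries to animals, so p-values measure the spread between these libraries, which may be technical. In a pool of cells, accessibility in fewer cells and weaker accessibility in each cell cannot be told apart.

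**Figure D1:**
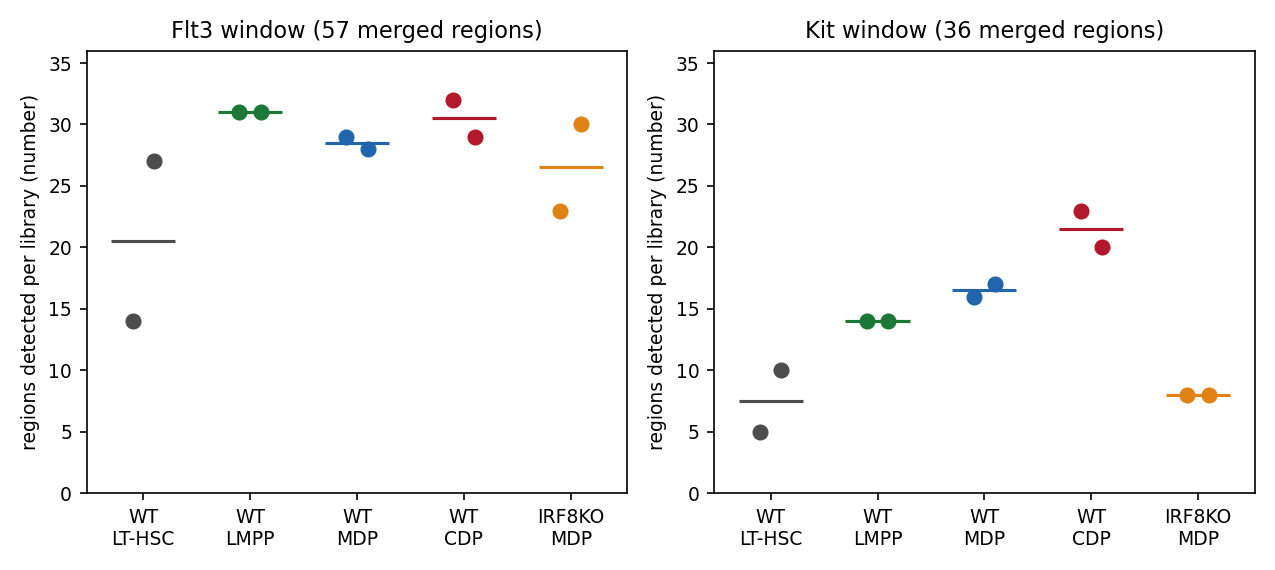
Merged regions detected in each library (vertical axis, number of regions) in the windows of Flt3 and Kit, by group. Each point is a library and each line a group mean; at Kit the CDP libraries reach 23 and 20 while both IRF8KO MDP libraries stand at 8, and at Flt3 the lowest point is LT-HSC replicate 1 with 14.

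Inside the gene spans alone, the groups differed at both genes. Of 15 regions inside Flt3, the LT-HSC libraries detected 3 and 6, LMPP 7 and 7, WT MDP 10 and 9, WT CDP 12 and 11, and IRF8KO MDP 8 and 10. Of 12 inside Kit, the counts were 1 and 4, 4 and 4, 6 and 7, 8 and 7, and 2 and 2. The share of variation between groups was 88.3% at Flt3 (exact permutation p = 0.00741) and 89.5% at Kit (exact permutation p = 0.0254). The highest count inside each gene was in CDP, but inside Kit replicate 2 of CDP and replicate 2 of WT MDP both had 7. IRF8KO MDP counts touched those of WT MDP inside Flt3 and lay apart from them inside Kit.

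How widely the regions were shared was counted at each locus, with no test between the loci. At Flt3, 10 of 57 regions (17.5%) were detected in all 10 libraries, 3 in both libraries of 1 group and nowhere else, 16 (28.1%) in 1 library, and 28 in other combinations. At Kit, 3 of 36 (8.33%) were detected in all 10 libraries, 6 (16.7%) in both libraries of 1 group only, 8 (22.2%) in 1 library, and 19 in other combinations. Over all 114366 regions, 17.0% were in all 10 libraries, 11.8% in 1 group only and 19.1% in 1 library. By place, 15 Flt3 regions lay inside the gene, 28 upstream and 14 downstream, and the Kit regions were 12 inside, 7 upstream and 17 downstream. At Flt3 21 regions, and at Kit 10, were detected in both libraries of no group.

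The deposited lists carry no signal per peak, and the row order of each list was taken as its order of strength. The list position of a region is the row of its strongest peak as a percent of the list, with 0 at the top. Replicates placed their shared regions in much the same order (Spearman correlations of 0.883 to 0.946 across regions, which are not independent). For the 19483 regions found in all 10 libraries, list positions were tested across the 5 groups with the exact permutation test and adjusted by the Benjamini-Hochberg method over all 19483, and 22.1% had an adjusted p at or under 0.05. Of the 13 such regions at the 2 loci, 2 at Flt3 and 2 at Kit passed.

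The region over the Flt3 start was among the strongest peaks of LMPP and CDP. It spans chr5:147398300-147401590 and also holds the start of the lncRNA gene Gm26597. Its list position was 23.9% and 19.5% in LT-HSC, 1.85% and 2.37% in LMPP, 6.31% and 6.83% in WT MDP, 2.12% and 1.96% in CDP, and 11.2% and 12.0% in IRF8KO MDP. LMPP and CDP overlapped at the top of the lists, WT MDP, IRF8KO MDP and LT-HSC followed in that order without overlap, and the group share of variation was 98.2% (exact permutation p = 0.00317, adjusted p = 0.0289). Without LT-HSC, whose gate excluded surface Flt3, the exact permutation p over the 105 assignments of 8 libraries was 0.0286. The difference between WT and IRF8KO MDP, 6.57 ± 0.363 against 11.6 ± 0.573 (mean ± SD, n = 2 each), was larger than the spread of either group, but 2 libraries against 2 cannot give a p under 0.333 in an exact test.

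A region 11.5 kb into Flt3, at chr5:147387974-147389957, stood low in the lists of stem cells and near the top in MDP. Its list position was 96.0% and 71.2% in LT-HSC, 41.0% and 37.8% in LMPP, 7.85% and 9.35% in WT MDP, 12.1% and 12.6% in CDP, and 12.0% and 10.5% in IRF8KO MDP. By list position WT MDP stood above the other groups, CDP and IRF8KO MDP almost touched, and LMPP and LT-HSC lay far lower (96.3% between groups, exact permutation p = 0.00106, adjusted p = 0.0221). Without LT-HSC the exact permutation p was 0.00952, the smallest that 8 libraries allow. The order of the first 3 groups depended on the scale. Ranked among the 19483 regions found in all 10 libraries, WT MDP (23.7% and 29.1%) and IRF8KO MDP (29.6% and 27.5%) overlapped. CDP, at 37.0% and 36.4%, lay below both on that scale. The covered length was 501 and 645 bp in LT-HSC, 975 and 1480 bp in LMPP, 1832 and 1411 bp in WT MDP, 1984 and 1747 bp in CDP, and 970 and 1138 bp in IRF8KO MDP. It was shortest in LT-HSC, but WT MDP and CDP overlapped, and IRF8KO MDP overlapped LMPP, so its order was not that of the list positions.

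Deeper in the gene, at 34.0 and 59.9 kb, 2 regions were strongest in LMPP. The first, chr5:147365946-147367075, stood at 48.6% and 28.0% in LT-HSC, 4.47% and 5.22% in LMPP, 24.7% and 25.5% in WT MDP, 38.7% and 34.2% in CDP, and 36.4% and 32.2% in IRF8KO MDP. It did not pass (exact permutation p = 0.0519, adjusted p = 0.112). Ranked among the 19483 shared regions in place of the whole list, it did, with an exact permutation p of 0.00317 and an adjusted p of 0.0226, on a scale where 42.6% of the regions passed. The second, chr5:147339178-147341981, was missing from LT-HSC replicate 1 and stood at 54.4% in replicate 2, at 3.73% and 3.05% in LMPP, 17.8% and 14.9% in WT MDP, 16.8% and 22.0% in CDP, and 28.2% and 21.5% in IRF8KO MDP. In both regions the LMPP libraries were above every other library. The 11.5 kb region and this pair thus ranked WT MDP and LMPP in opposite order within 1 gene.

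Other regions inside Flt3 were strong in CDP or detected from MDP on. The one at 37.3 kb, chr5:147362523-147363851, was in 9 libraries, at 10.8% and 11.8% in CDP, 16.6% and 15.4% in WT MDP, 16.8% and 17.9% in LMPP, and 46.1% and 28.1% in IRF8KO MDP. LT-HSC held it in replicate 2 only, at 67.6%, and the IRF8KO MDP libraries placed it lower than any other progenitor library. The region at 7.8 kb, chr5:147391524-147393819, had the same libraries, with LMPP at 16.8% and 15.7%, WT MDP at 18.5% and 19.0%, CDP at 11.3% and 20.1%, and IRF8KO MDP at 28.2% and 21.5%. At 45.7 kb, chr5:147353949-147355641, the position was 38.9% and 43.0% in WT MDP, 20.5% and 26.7% in CDP, and 91.4% in IRF8KO MDP replicate 2, the only IRF8KO library with a peak there. No LT-HSC or LMPP library held it. Regions at 48.2 kb (chr5:147351421-147353129), 22.1 kb (chr5:147378110-147378672) and 20.5 kb (chr5:147379655-147380241) were in both CDP libraries and 1 WT MDP library, and a region at 68.7 kb (chr5:147331329-147332217) was in all MDP and CDP libraries and LMPP replicate 1.

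**Figure D2:**
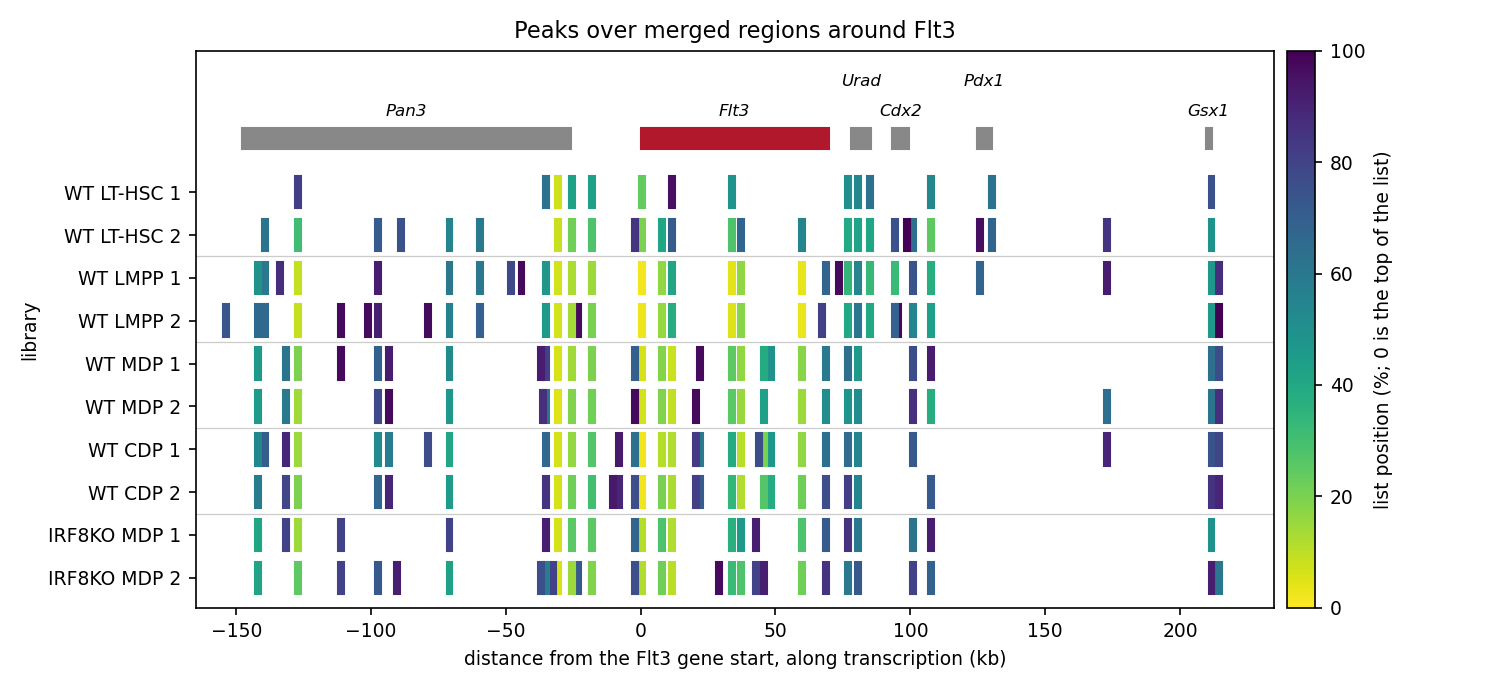
Peaks of each library over the merged regions around Flt3. The horizontal axis is the distance from the gene start along transcription in kb, each row is a library, each bar marks a detected region at its centre with a fixed width, and the colour is its list position in percent (yellow is the top of the list). Grey and red boxes are protein-coding genes; the bars at 34.0 and 59.9 kb are brightest in LMPP, and the bar at 11.5 kb is brightest in WT MDP.

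Upstream of Flt3, the regions found in all 10 libraries lay at or in Pan3, which encodes a subunit of a poly(A) nuclease, or between the 2 genes. The region 30.7 kb upstream of Flt3, chr5:147429622-147432818, lies over a Pan3 promoter of the RefSeq table that is further into the gene than the first base of its record. It stayed between 5.07% and 8.31% in all 10 libraries (exact permutation p = 0.0201, adjusted p = 0.0659). Regions 18.1 kb upstream (chr5:147417829-147419337, 14.6% to 42.8%, adjusted p = 0.122 in the exact permutation test) and 25.5 kb upstream, over the first base of the Pan3 record (chr5:147425087-147426982, 12.8% to 42.8%, adjusted p = 0.283), were also in every library. A region within Pan3, 127.2 kb upstream at chr5:147526906-147528562, stood at 81.7% and 30.6% in LT-HSC and at 8.92% and 8.84% in LMPP (adjusted p = 0.0746 in the exact permutation test). None of these 4 passed the adjusted threshold. Downstream, the regions in all 10 libraries lay at 76.8 kb (chr5:147323165-147324143), at 80.6 kb in Urad (chr5:147319455-147320270) and at 211.7 kb over the Gsx1 start (chr5:147188298-147189206), with adjusted p of 0.172, 0.134 and 0.488 in the exact permutation test. They were weak, with every list position at 33.7% or further down.

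The Kit start region, chr5:75574228-75577000, was strongest in MDP. Its list position was 26.3% and 15.5% in LT-HSC, 9.76% and 8.97% in LMPP, 6.61% and 5.73% in WT MDP, 11.7% and 12.1% in CDP, and 6.11% and 9.58% in IRF8KO MDP. IRF8KO MDP overlapped WT MDP and LMPP, CDP lay below LMPP without overlap, and LT-HSC was lowest (80.7% between groups, exact permutation p = 0.00635, adjusted p = 0.0383). The result was not stable: without the LT-HSC group the share was 83.9% and the exact permutation p 0.0571. Without either LT-HSC library alone, that p stayed at 0.00635. Without any 1 of the 8 other libraries it lay between 0.0762 and 0.128. WT MDP at 6.17 ± 0.625 and IRF8KO MDP at 7.84 ± 2.45 (mean ± SD, n = 2 each) differed by less than the spread of the IRF8KO libraries.

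A region 156.1 kb downstream of the Kit start had the widest range of list position among the 3 Kit regions found in every library. It spans chr5:75730207-75731887, beyond the 3' end of Kit and outside any annotated gene of the RefSeq table. Its list position was 27.1% and 12.4% in LT-HSC, 5.32% and 6.11% in LMPP, 8.34% and 7.71% in WT MDP, 54.5% and 67.4% in CDP, and 2.63% and 1.85% in IRF8KO MDP. IRF8KO MDP held it at the top, LMPP and WT MDP followed without overlap, and CDP held it far down the list. The groups accounted for 96.0% of the variation (exact permutation p = 0.00106, adjusted p = 0.0221), with p from 0.00106 to 0.0169 in exact permutation tests that left out each library in turn and 0.00952 without LT-HSC. Mean positions in WT and IRF8KO MDP were 8.02 ± 0.440 and 2.24 ± 0.557 (SD, n = 2 each), a difference beyond the spread of both groups. Mast cells also express Kit. Of 7 regions at Cpa3, Ms4a2 and Mcpt8, which mark mast cells or basophils, LT-HSC detected 2 and 3, LMPP 6 and 6, WT MDP 1 and 2, WT CDP 0 and 0, and IRF8KO MDP 2 and 2. Ms4a2 was at 0 in all MDP libraries. The 1 region at Mcpt8 was detected in both IRF8KO MDP libraries and in neither WT MDP library. The part of mast cells or basophils in the result was not tested.

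The other Kit region of all 10 libraries lay 169.8 kb from the start at chr5:75744335-75745140. It stood between 38.4% and 74.5% with broad replicate spread (31.1% between groups, exact permutation p = 0.704, adjusted p = 0.732). By list position the pair of far downstream regions thus differed: only the nearer moved beyond the replicate spread, although the difference between the 2 regions was not tested. Ranked among the 19483 regions found in all 10 libraries, the farther one stood at 75.9% and 76.8% in LT-HSC. On that scale the other libraries held it lower, at 88.7% to 98.25% (86.4% between groups, exact permutation p = 0.0825, adjusted p = 0.120).

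**Figure D3:**
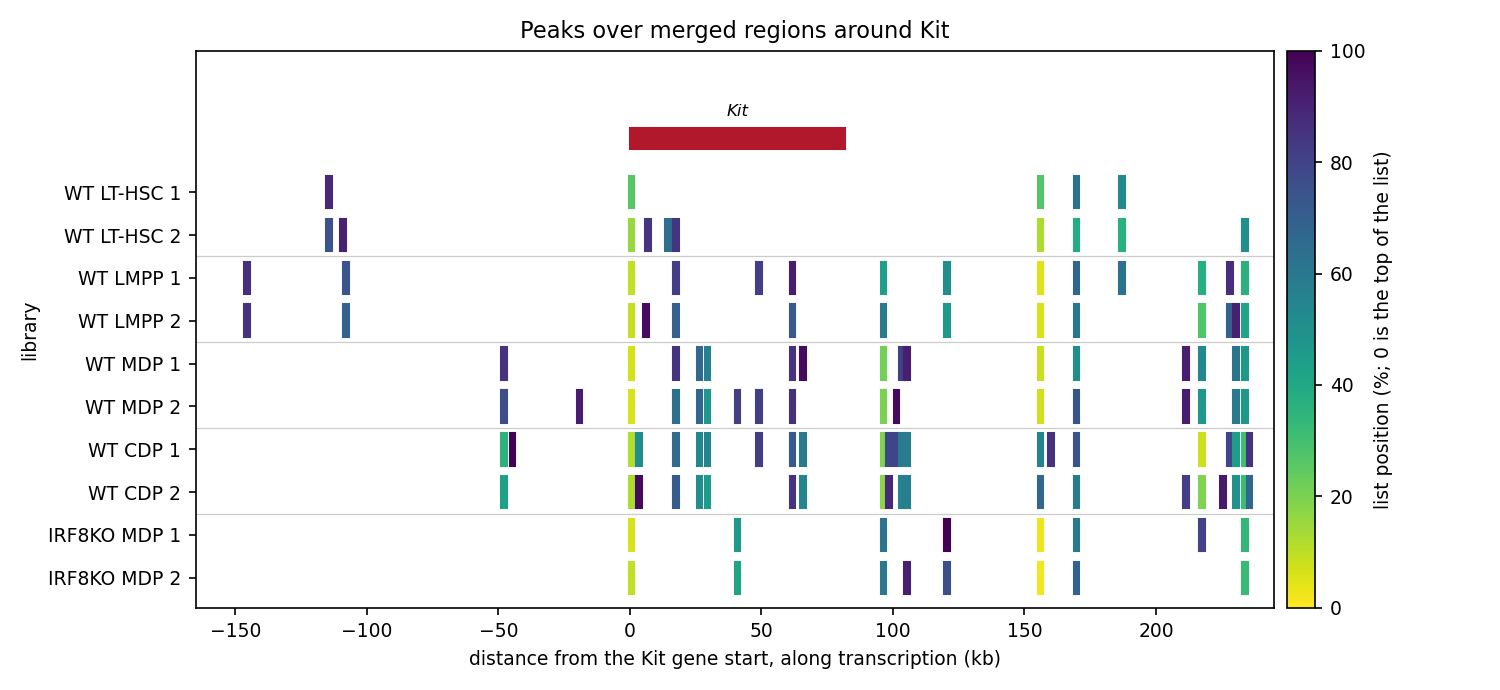
Peaks of each library over the merged regions around Kit, drawn as at Flt3 (distance from the gene start in kb; rows are libraries; colour is the list position in percent). The bars at 26.5 and 29.5 kb appear in WT MDP and CDP rows only, and the bar at 156.1 kb is bright in all groups but CDP.

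**Figure D4:**
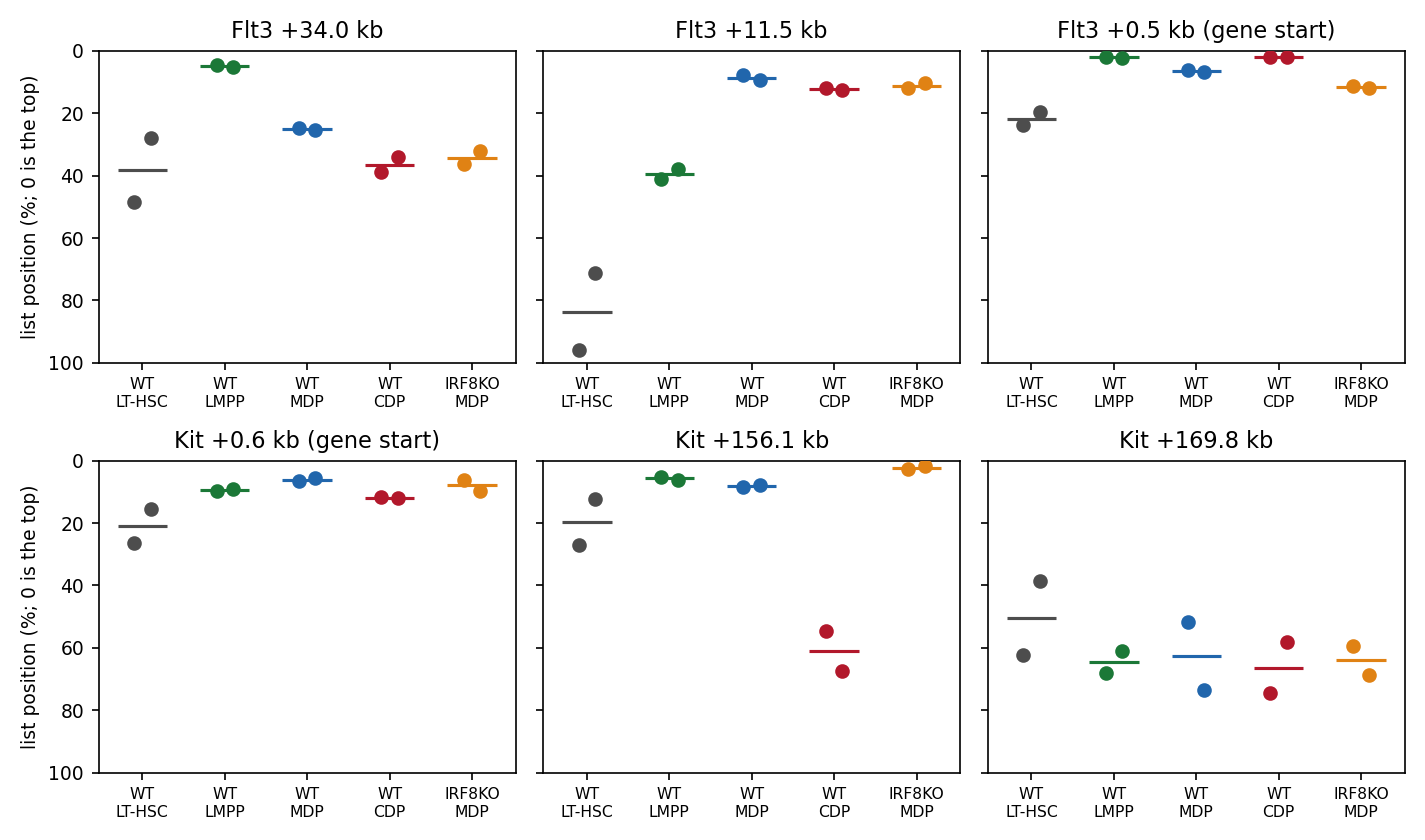
List position of 6 regions in each library (vertical axis in percent, 0 at the top of the axis is the strongest peak), by group. Points are libraries and lines are group means; the Kit region at 156.1 kb falls to 54.5% and 67.4% in CDP, and the Flt3 region at 11.5 kb rises from 96.0% and 71.2% in LT-HSC to 7.85% and 9.35% in WT MDP.

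From LT-HSC to LMPP, with all peaks used, a larger share of regions was gained at Kit than at Flt3. Regions present in both libraries of the later group and absent from both of the earlier one were called gained, and the opposite were called lost. At Kit 7 of 36 regions were gained and 1 was lost, and at Flt3 2 of 57 were gained and 1 was lost. Over all regions 12.7% were gained and 1.62% lost. Among only the regions nearest to each gene within 100 kb, 3 of 24 (12.5%) were gained at Kit and 0 of 19 at Flt3. Of the 12 Kit regions in both LMPP libraries, 7 (58.3%) were gained, against 27% of all regions in both LMPP libraries, and of the 24 such Flt3 regions 2 (8.33%) were. Of those in both LT-HSC libraries, 1 of 5 was lost at Kit and 1 of 13 at Flt3, against 6.33% of all. Differences between the 2 loci, or between a locus and all regions, were not tested in this or the other comparisons.

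The Kit regions gained in LMPP lay far from the start, apart from one at 61.8 kb inside the gene (chr5:75636475-75637139). The strongest was at 217.4 kb (chr5:75791119-75793702), with list positions of 37.0% and 27.5% in LMPP. Others lay at 96.4 kb (chr5:75670741-75671956), 120.5 kb (chr5:75695130-75695836), 228.2 kb (chr5:75802850-75803485) and, upstream, at 108.0 kb (chr5:75466718-75467263) and 145.5 kb (chr5:75429188-75429796). These 2 upstream regions were found in both LMPP libraries and nowhere else. The region lost, 114.3 kb upstream at chr5:75460403-75460909, was the only Kit region confined to both LT-HSC libraries. At Flt3 the gains lay at 214.4 kb (chr5:147185607-147186571) and, in Pan3, 142.0 kb upstream (chr5:147541999-147542895), and the loss lay over the Pdx1 start at 130.3 kb (chr5:147269862-147270490), the only region at Flt3 found in both LT-HSC libraries alone. Without LT-HSC replicate 1, the Flt3 counts were 3 gained and 4 lost, and without replicate 2 they were 11 and 1. They were 9 and 1 without LMPP replicate 1, and 7 and 1 without replicate 2. At Kit, 7 to 9 regions were gained without each library, and 4 were lost without LT-HSC replicate 1 and 2 without LMPP replicate 1. With lists trimmed to the shortest, Kit gained 1 region (217.4 kb) and lost 2, and Flt3 gained 1 and lost 1. With the first 50% of each list, Flt3 gained 4 of 57 and Kit 2 of 36, so the order of the 2 shares turned.

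From LMPP to MDP both loci gained and lost regions. At Kit 4 regions were gained and 4 lost, and at Flt3 4 were gained and 4 lost, while over all regions 10.3% were gained and 10.6% lost. Of regions in both MDP libraries, 4 of 13 (30.8%) at Kit and 4 of 25 (16.0%) at Flt3 were gained, against 22.1% of all. Of regions in both LMPP libraries, 4 of 12 (33.3%) at Kit and 4 of 24 (16.7%) at Flt3 were lost, against 22.5%.

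Inside Kit, MDP gained regions at 26.5 kb (chr5:75601119-75601793) and 29.5 kb (chr5:75604191-75604879), and outside it a region 47.7 kb upstream (chr5:75526934-75527574) and one at 211.4 kb (chr5:75786128-75786684). The first 3 were in all WT MDP and CDP libraries and in no other library. The 4 regions lost at Kit were those at 120.5 and 228.2 kb and those 108.0 and 145.5 kb upstream, all gained in the step before. At Flt3 the gains were the 45.7 kb region inside the gene, one 2.1 kb upstream of the start (chr5:147402128-147403047), and 2 in Pan3, 93.3 kb (chr5:147493356-147494213) and 131.6 kb upstream (chr5:147531756-147532457). The losses lay in Cdx2 at 94.2 kb (chr5:147305376-147307184), in Urad at 85.0 kb (chr5:147315038-147315931), and in Pan3 59.6 kb (chr5:147459732-147460362) and 139.4 kb upstream (chr5:147539415-147540349), so none of the 4 was inside Flt3. At Flt3 the counts were 5 gained and 10 lost without LMPP replicate 1, 4 and 9 without LMPP replicate 2, 6 and 4 without MDP replicate 1, and 7 and 4 without MDP replicate 2. At Kit 7 were gained and 4 lost without either MDP library, and 5 were lost without either LMPP library. With lists trimmed to the shortest, no Kit region was gained or lost, and Flt3 gained 2 and lost 3.

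From MDP to CDP, with all libraries kept, Kit gained 3 regions and Flt3 1, and neither lost any, against 6.48% gained and 3.64% lost over all regions. Of regions in both CDP libraries, 3 of 18 at Kit (16.7%) and 1 of 27 at Flt3 (3.70%) were gained, against 12.6%, and 0 of 13 and 0 of 25 regions in both WT MDP libraries were lost, against 7.84%. The Kit gains lay at 3.5 kb inside the gene (chr5:75577674-75579200), 98.4 kb (chr5:75673017-75673673) and 235.6 kb (chr5:75810213-75810866), and the Flt3 gain lay 8.1 kb upstream (chr5:147408309-147408847). All 4 were found in both CDP libraries and no other library, and all but 1 of their list positions stood at 67.4% or further down. Without 1 library, Flt3 gained 2 to 4 regions and lost 1 or, without MDP replicate 2, 2. Kit gained 6 and lost 2 without MDP replicate 1, gained 6 and lost 1 without CDP replicate 2, and lost 0 without either of the other 2 libraries. With lists trimmed to the shortest, Kit gained the region 47.7 kb upstream and lost that at 156.1 kb, and Flt3 gained none and lost 1.

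When LT-HSC were set against CDP, the share of regions gained at Kit was above that at Flt3. Kit gained 13 regions and lost 2, and Flt3 gained 10 and lost 2, against 24.1% gained and 5.4% lost over all regions. Among only the regions nearest to each gene within 100 kb, 10 of 24 (41.7%) were gained at Kit and 6 of 19 (31.6%) at Flt3. Of regions in both CDP libraries, 13 of 18 at Kit (72.2%) and 10 of 27 at Flt3 (37.0%) were gained, against 46.6%. Of those in both LT-HSC libraries, 2 of 5 at Kit and 2 of 13 at Flt3 (15.4%) were lost, against 21.1%. The gained Kit regions included those at 65.9 kb inside the gene (chr5:75640518-75641193), at 103.6 kb (chr5:75678254-75678906) and 105.3 kb (chr5:75679925-75680563) within the lncRNA gene Gm32558, and at 230.3 kb (chr5:75804945-75805603). The regions lost were that 114.3 kb upstream and one at 187.2 kb (chr5:75761747-75762693), which stood at 53.1% and 36.4% in LT-HSC and remained in LMPP replicate 1 at 62.6%. At Flt3, 5 of the 10 gains lay inside the gene, at 20.5, 22.1, 45.7, 48.2 and 68.7 kb. Without LT-HSC replicate 1, Flt3 lost 7 and Kit 5, and without LT-HSC replicate 2, Flt3 gained 16. With lists trimmed to the shortest, Kit gained 3 and lost 3, and Flt3 gained 2 and lost 5.

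In IRF8KO MDP, with all peaks used, Kit lost 7 regions that both WT MDP libraries held and Flt3 lost 1. Of the 13 Kit regions in both WT MDP libraries, 7 (53.8%) were detected in neither IRF8KO library, against 19.4% of all regions in both WT MDP libraries. At Flt3 1 of 25 (4.0%) was lost. As a share of all regions at each locus, 7 of 36 and 1 of 57 were lost, against 8.99% over all regions, and 1 was gained at each, against 2.69%. Among only the regions nearest to each gene within 100 kb, 5 of 24 (20.8%) were lost at Kit and 0 of 19 at Flt3. Of regions in both IRF8KO libraries, 1 of 7 at Kit and 1 of 22 at Flt3 were gained, against 7.08%. The IRF8KO libraries had 50728 and 54277 peaks, and the WT MDP libraries 62130 and 64515.

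The 7 regions lost at Kit lay 47.7 kb upstream, inside the gene at 17.5 kb (chr5:75592025-75592911), 26.5, 29.5 and 61.8 kb, and downstream at 211.4 and 230.3 kb. In WT MDP the strongest of them, at 29.5 kb, stood at 57.0% and 46.9%, and the weakest, at 211.4 kb, at 91.6% and 92.1%. None stood above 46.9%, and with lists trimmed to the shortest or to their first 50%, Kit lost 1 region and gained 1. After trimming to the shortest list, the region lost was that at 96.4 kb, which stood at 21.4% and 19.7% in WT MDP, 61.9% and 60.2% in IRF8KO MDP, 44.4% and 58.5% in LMPP, and 19.0% and 17.3% in CDP. The region gained after trimming, at 40.9 kb inside Kit (chr5:75615605-75616255), stood at 46.1% and 41.8% in IRF8KO MDP, at 81.6% in WT MDP replicate 2, and was in no other library. The region at 217.4 kb had list positions of 53.3% and 46.9% in WT MDP and 8.11% and 19.4% in CDP, and was found in IRF8KO replicate 1 only, at 80.1%.

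The region at 120.5 kb was the only Kit region gained in IRF8KO MDP. It was detected in both LMPP libraries at 51.4% and 46.2%, in both IRF8KO libraries at 99.7% and 76.0%, and in no other library. The Flt3 gain at 42.7 kb (chr5:147357492-147358020) was found in the IRF8KO libraries alone, at 91.7% and 80.5%, and the Flt3 loss was the region 93.3 kb upstream in Pan3. The mean number of regions detected fell by 8.5 at Kit, from 16.5 ± 0.707 to 8.0 ± 0.0, and by 2.0 at Flt3, from 28.5 ± 0.707 to 26.5 ± 4.95 (SD, n = 2 each). The exact permutation p of 2 libraries against 2 was 0.333 at Kit, the smallest possible, and 1.0 at Flt3. Without each of the 4 libraries in turn, between 7 and 10 Kit regions were lost and 1 or 2 gained. At Flt3 4 were lost without WT MDP replicate 1, 3 without WT MDP replicate 2, 2 without IRF8KO replicate 1 and 4 without IRF8KO replicate 2, and the gains were 2, 1, 5 and 1 in the same order.

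Genes of other cell types were counted beside this. Pax5, a transcription factor of B cells, had 6 regions. The CDP libraries detected 6 and 5 of them, WT MDP 3 and 3, LMPP 2 and 2, LT-HSC 1 and 2, and IRF8KO MDP 1 and 1. As at Kit, CDP was highest and the IRF8KO libraries stood under WT MDP. The 1 region at Cd79a, a part of the B cell receptor, was detected in every library. From WT to IRF8KO MDP, neutrophil regions at Elane, Camp and Ngp went from 3 and 3 of 7 to 4 and 5, erythroid regions at Gata1, Klf1 and Epor from 3 and 3 of 7 to 2 and 2, and megakaryocyte regions at Pf4, Itga2b and Gp9 from 4 and 5 of 6 to 2 and 4. Their part in the Kit counts was not tested. The WT MDP libraries serve in 3 of the 5 comparisons and every other WT group in 2, so the comparisons are not independent of each other.

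**Figure D5:**
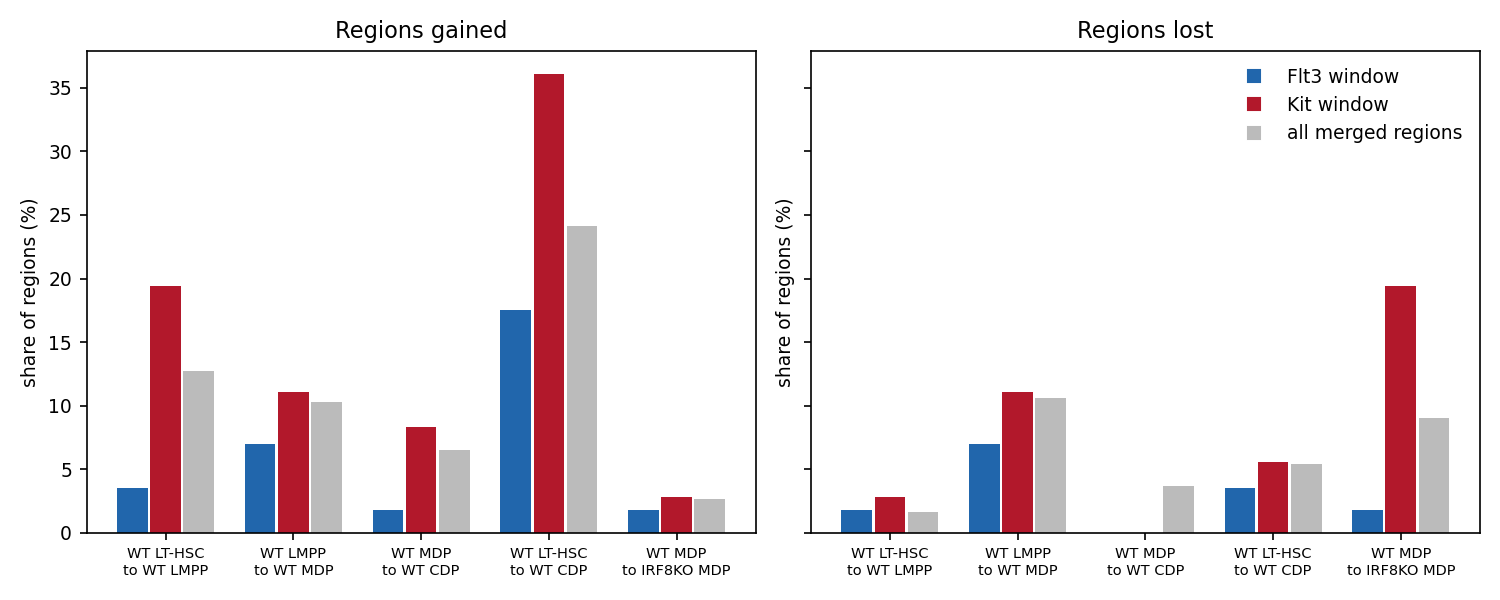
Share of merged regions gained (left) and lost (right) in each of the 5 comparisons (vertical axis in percent) at Flt3 (of 57), at Kit (of 36) and over all 114366 regions. In IRF8KO MDP the Kit bar for lost regions stands for 7 of 36 against 8.99% of all regions, and the Flt3 bar for 1 of 57.

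Some regions were detected in most libraries and neither gained nor lost. At Kit, the region at 233.9 kb (chr5:75808290-75809395) was in 9 libraries, at 33.6% and 32.2% in IRF8KO MDP and 30.3% and 30.9% in CDP, and WT MDP held it at 47.0% and 46.9%. At Flt3, the region at 107.7 kb (chr5:147291908-147293768) was in 9 libraries and strongest in LT-HSC replicate 2 at 24.7%, and those 35 kb (chr5:147434960-147435922) and 70.9 kb upstream (chr5:147470917-147471867) were also in 9. Other Kit regions were in few libraries, such as that at 49.2 kb (chr5:75623860-75624445) in 1 library each of LMPP, WT MDP and CDP. The region at 101.4 kb (chr5:75676110-75676750), over a promoter inside the record of Gm32558, was in WT MDP replicate 2 and CDP replicate 1. Of the regions found in 1 library, 16 lay at Flt3 and 8 at Kit, and each stood at 64.3% or further down its list.

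Genes that act with these receptors were followed by the regions nearest to them. The list held 38 genes besides Flt3 and Kit, with 510 regions: related receptors, ligands, adaptors, kinases, STAT proteins, phosphatases and feedback inhibitors. A gene had a net gain when more of its regions were gained than lost. Between LT-HSC and LMPP the list gained 63 regions and lost 2, and 26 genes had a net gain and 0 a net loss, against 35.5% and 3.87% of 17235 protein-coding genes. Between LMPP and MDP they were 63 and 34 regions, with 20 genes up and 9 down, against 25.5% and 21.5%. Between MDP and CDP they were 37 and 23 regions, with 14 up and 8 down, against 21.7% and 11.3%. Over the path from LT-HSC to CDP they were 131 and 9 regions, with 32 up and 1 down, against 48.6% and 9.19%. In IRF8KO MDP 17 regions were gained and 53 lost, with 4 up and 19 down, against 7.14% and 28% of genes. The median net change per gene of the list was 1.0, 1.0, 0.0, 3.0 and -0.5 in these comparisons and 0.0 over all genes in each. As shares of the 510 regions, 12.4%, 12.4%, 7.25%, 25.7% and 3.33% were gained, against the 12.7%, 10.3%, 6.48%, 24.1% and 2.69% of all regions, and 0.392%, 6.67%, 4.51%, 1.76% and 10.4% were lost, against 1.62%, 10.6%, 3.64%, 5.4% and 8.99%. The shares gained were thus near those of all regions. Genes of the list with many regions can reach a net change more easily than a gene with few, and no matching for this was done.

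Among ligands and related receptors, Flt3l had 2 regions and none gained or lost between LT-HSC and CDP or in IRF8KO MDP. Kitl, whose product binds Kit, lost 6 of 22 in IRF8KO MDP and gained 0. Csf1r, which encodes the CSF1 receptor, gained 5 of 8 from LT-HSC to CDP and changed by 0 in IRF8KO MDP, and Pdgfra, the neighbour of Kit, gained 6 of 16 and lost 0 from LT-HSC to CDP and lost 1 in IRF8KO MDP. Among feedback genes, Socs6, which binds Kit and lowers its signalling, lost 7 of 22 in IRF8KO MDP and gained 0, and Dusp6, a phosphatase of ERK kinases, lost 3 of 21. These are 27.3% of regions at Kitl, 31.8% at Socs6 and 14.3% at Dusp6, against 8.99% of all regions. Among other genes of these kinds, the share lost in IRF8KO MDP lay on both sides of 8.99%. Socs1 lost 0 of 6, Socs2 2 of 11 (18.2%), Socs3 0 of 14, Spry1 2 of 12 (16.7%) and Spry2 0 of 16, and Spry2 gained 1. Among ligands, Csf1 lost 1 of 16 (6.25%) and gained 1, and Il34 lost 1 of 2 (50%). Lyn and Fyn, kinases of the Src family, gained 7 of 30 (23.3%) and 11 of 40 regions (27.5%) from LT-HSC to CDP, near the 24.1% of all regions.

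Of 16 transcription factor genes known to regulate Flt3 or Kit, with 302 regions, 6 had a net gain and 2 a net loss from LT-HSC to LMPP, 6 and 4 from LMPP to MDP, 3 and 7 from MDP to CDP, and 9 and 3 from LT-HSC to CDP. The shares over all protein-coding genes are those given for the signalling list. Of the 302 regions 20.9% were gained and 5.3% lost from LT-HSC to CDP, against 24.1% and 5.4% of all regions. In IRF8KO MDP 2 genes had a net gain and 7 a net loss, with 13 regions gained (4.3%) and 28 lost (9.27%), against 2.69% and 8.99%, so the share lost was near that of all regions. Runx1 and Erg gained 13 of 44 (29.5%) and 11 of 36 regions (30.6%) from LT-HSC to CDP, against 24.1%, and lost 0. Gata2, which drives Kit in early progenitors, had 8 regions with 0 gained and 1 lost, and Meis1, known as an activator of Flt3, gained 2 and lost 4 of 36. In IRF8KO MDP Ikzf1, which encodes the lymphoid factor Ikaros, lost 5 of 37 (13.5%, against 8.99%) and gained 0. Larger shares were lost at Gata2 (2 of 8, 25%), Ldb1 (1 of 5, 20%) and Meis1 (5 of 36, 13.9%), and smaller ones at the other regulators. Gata2 and Meis1 also gained 1 region each.

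The genes whose detection across the 10 libraries was most like that of Flt3 or Kit were sought among 4282 protein-coding genes with at least 8 nearest regions. Likeness was the mean absolute difference in the percent of a gene's regions detected per library. For the 19 regions nearest to Flt3, the closest were Fem1c (3.86 points), Sik1 (3.89), 1700025G04Rik (4.0), Arsb (4.16) and Pebp4 (4.26), against a median of 14.7 over the genes. For the 24 regions nearest to Kit, they were Atl2 (3.19), Ptpro (3.45), Dock1 (3.96), Cacna1e (4.17) and 1110051M20Rik (4.17), against a median of 17.1. The Kit profile was 12.5% and 25.0% in LT-HSC, 33.3% and 33.3% in LMPP, 50% and 54.2% in WT MDP, 75% and 58.3% in CDP, and 25.0% and 29.2% in IRF8KO MDP. The Flt3 profile was 15.8% and 36.8%, 42.1% and 36.8%, 57.9% and 52.6%, 73.7% and 73.7%, and 47.4% and 57.9% in the same order. CDP held the highest values in both profiles, and the IRF8KO MDP values lay below WT MDP at Kit and overlapped them at Flt3.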

How the data were processed

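ATAC-seq was run on 10 libraries, 2 in each of 5 groups named by their titles. For LMPP another field names short-term stem cells, and the titles were followed. The submitters' processing notes name Bowtie 1.1.2, HOMER 4.9 and the mm10 build. Per the file headers, peaks came from HOMER, library by library and without a control, with a size of 500 bp, a distance between peaks of 1000 bp or more, a false discovery rate under 0.001, a 4-fold excess over nearby sequence and 1 tag per bp at most. A shift of reads for the transposase offset is not mentioned there. The authors deposited peak positions and a score that was 1 in every row, so no count model or signal could be used, and detection and row order were compared. Rows fell into 405 to 925 position-sorted runs per list, of which the largest held 2.41% to 4.61% of a list, so list positions within a run carry no order.

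The members and gene lists were chosen with earlier results of these data known. The regions named are those over a gene start, in all 10 libraries, gained or lost in a comparison, or in both libraries of 1 group only. The Flt3 regions at 7.8, 37.3 and 59.9 kb, the Kit region at 40.9 kb, and the regions detected in most or few libraries without a gain or loss were named after their values were seen. The genes most like Flt3 or Kit are the 5 with the smallest difference. Regions were assigned to the nearest protein-coding RefSeq gene within 100 kb. Detection needed an overlap of at least 1 bp. Exact permutation tests over libraries used the between-group sum of squares, and p-values of list positions were adjusted by the Benjamini-Hochberg method over all regions tested. List positions of regions other than the gene starts were tested after seeing the data. The scripts were tested on simulated data. Python 3.11.15, numpy 2.4.6, scipy 1.17.1 and matplotlib 3.10.9 were used. Alternatives were peaks covering 50% of a region, lists trimmed to 31325 rows or to their first 50%, a window of 100 kb, the gene span alone, and each library left out. A further marker gene is not reported here.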

Additional observations from a re-analysis of the deposited data

How the results depend on the processing

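Peaks are listed without signal, so depth limits what can be seen as a peak: the shortest list holds 31325 rows, and weak regions may be undetected in libraries with few peaks. The Kit count differed between groups under all alternatives but 2. The share of its variation between groups was 49.0% (exact permutation p = 0.524) with lists trimmed to the shortest and 75.1% (p = 0.102) with the first 50% of each list, and 93.3% to 98.2% without each library. The Flt3 count, at 55.9%, passed with trimmed lists (85.2%, exact permutation p = 0.0413), with the first 50% (70.5%, p = 0.00635) and in the gene span (88.3%, p = 0.00741), and gave 49.9% to 88.6% without each library. These passes were not the same pattern. From LT-HSC to CDP the mean count changed by -2.0 with trimmed lists, 4.5 with the first 50% and 7.0 in the gene span. The Kit start region gave 83.9% (exact permutation p = 0.0571) without LT-HSC and 78.7% to 97.8% without each library. The Flt3 region at 34.0 kb passed when ranked among shared regions (99.3%), without LT-HSC (98.5%) and without either LT-HSC library, with 79.9% to 98.9% over all left-out libraries; the cause was not tested. These checks of the 34.0, 11.5 and 156.1 kb regions, the ranking among shared regions and the omission of LT-HSC were chosen after seeing the data.

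Gained minus lost regions moved with most settings. With trimmed lists, the net change at Flt3 from LT-HSC to LMPP was 0, and it was -1 from LMPP to MDP, -1 from MDP to CDP, -3 from LT-HSC to CDP and -1 in IRF8KO MDP, and at Kit -1, 0, 0, 0 and 0. With the first 50% of each list it was 4, -2, -1, 6 and -1 at Flt3 and 2, 0, 1, 4 and 0 at Kit. In the gene span it was 0, 1, 0, 5 and 1 at Flt3 and 1, 2, 1, 5 and -4 at Kit. In the 100 kb window it was -1 at Flt3 and 3 at Kit from LT-HSC to LMPP, 2 at Kit from LMPP to MDP and 5 at Flt3 from LT-HSC to CDP. With peaks covering 50% of a region it was 5, 3, 13 and -1 at Flt3 from LT-HSC to LMPP, MDP to CDP, LT-HSC to CDP and in IRF8KO MDP. Without each library of the groups compared, it ranged at Flt3 from -1 to 10, -5 to 3, 0 to 3, 4 to 14 and -3 to 3, and at Kit from 3 to 8, -1 to 3, 3 to 5, 8 to 16 and -9 to -6. The difference in mean regions detected at Flt3 reversed to 2.5 from LMPP to MDP in the gene span, to -2.0 from MDP to CDP and -2.0 from LT-HSC to CDP with trimmed lists, to -1.5 from MDP to CDP with the first 50%, and ranged from -5.5 to 1.5 in IRF8KO MDP without each library. At Kit this difference turned in no setting run, but it was 0.0 from LT-HSC to LMPP with trimmed lists and from LMPP to MDP with trimmed lists and with the first 50%, against 6.5 and 2.5 with all peaks, and no 2 against 2 test can pass.

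Replicate numbers are shared between groups, but same-numbered libraries did not deviate together (correlations of -0.0165 to 0.0130 over 10 pairs of groups). With the replicate block, the share between groups was 94.4% for the Kit count (exact permutation p = 0.0250), 62.0% for the Flt3 count (p = 0.175), 98.3% for the Flt3 start (p = 0.0167) and 82.5% for the Kit start (p = 0.0333), and no call changed.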
